A study of Mus musculus with 4 samples.

Results

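Titin (Ttn, gene ID 22138) and nebulin (Neb, gene ID 17996) are giant sarcomere genes that are long enough to hold several macroH2A domains. Both lie on mouse chromosome 2, 24.3 Mb apart, and were chosen by name with fixed mm9 intervals. The Ttn interval runs from 76540001 to 76822000 (282 kb), the Neb interval from 51990001 to 52236000 (246 kb), and each was read with 300 kb on either side. MacroH2A, a histone H2A variant with a macrodomain, was mapped by chromatin immunoprecipitation and sequencing (ChIP-seq) in C2C12, a mouse myoblast line that fuses into myotubes in low serum. The 2 libraries used here are C2C12 myoblasts at day 0 of differentiation medium (DM) and C2C12 myotubes at day 5 of DM. The DM held 2% horse serum, the plates were Matrigel-treated and the antibody was raised against macroH2A, per the labels, which name no genotype change. The series also has 2 input samples, which were not analysed here. Of 30016 islands at day 0 and 29473 at day 5, the 2 loci held 19 and 24.

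Titin spans the sarcomere from Z-disc to M-line as an elastic filament, and nebulin runs along the thin filament and is tied to its length. Both genes are switched on as myoblasts become myotubes and are read from the minus strand, so the upper flank is upstream and the lower flank downstream. The start of Ttn lies near the upper edge of its interval, called the start-side edge here, while that of Neb may lie further inside. MacroH2A forms broad domains in the genome and is known both from silent chromatin, such as the inactive X chromosome, and from some genes that respond to signals. Expression was not measured in these libraries, so neither the switching on of the genes nor the labelled cell type could be checked.

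The Ttn promoter is shown because the islands that appeared over Ttn in the myotube library lay at the start side of the gene. It covers the 250 bases before the start, from RefSeq in GRCm38.p6, chr2:76982548-76982797, minus strand. That build differs from the mm9 of the islands, so the promoter was not placed among them. Capitals mark a MEF2 box, the A/T-rich site of the MEF2 muscle factors, and an E-box, CANNTG, the core of sites bound by the MyoD family.
Ttn: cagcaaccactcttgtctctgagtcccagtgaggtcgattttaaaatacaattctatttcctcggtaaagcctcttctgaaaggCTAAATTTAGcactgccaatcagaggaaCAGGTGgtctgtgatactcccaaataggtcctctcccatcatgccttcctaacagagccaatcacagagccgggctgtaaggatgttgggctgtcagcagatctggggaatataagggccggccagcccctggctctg
The MEF2 box lies 166 to 157 bases before the start and the E-box 138 to 133 bases before it. Both motif patterns read the same on either strand, though the matched E-box letters, CAGGTG, do not, and the matches do not overlap. Of 32851 RefSeq promoters cut to the same length, 0.508% held a MEF2 box and 66.2% an E-box. The CArG box of serum response factor, held by 1.47% of promoters, had no match in this window. These matches describe letters and show no binding.

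An island is a run of enriched windows of 600 bp, joined across gaps of up to 1200 bp, with a deposited count of ChIP reads. Density is reads per kb of island, and reads per kb of an interval divide the island reads by the whole interval. Where days are compared, reads are also given per 1000000 reads in islands, since islands held 1.22 times as many reads at day 5 (29619426 against 24365482). Those totals are not library depths. Chromosome 2 was covered over 15.5% of its span at day 0 and 17.6% at day 5, in 2520 and 2705 islands. The libraries' median island density was 72.9 and 80.9 reads per kb. There was 1 library per day and no replicate, so no test and no p-value are given, and every difference is between these libraries. Intervals in brackets are exact 95% Poisson intervals for counts and densities. Those on ratios come from a normal approximation of the log ratio at the same level. Both kinds cover counting error only. Where an island crosses a border, its share of reads by length was taken as the count. The lists hold only what passed the caller, so a stretch with no island is listed as empty and macroH2A there is not shown to be absent.

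Over the Ttn body, the myoblast list held no island and the myotube list held 2. Both sat within 13.0 kb of the start-side edge, and together they covered 7.8 kb, or 2.77% of the gene. The wider ran from 76809001 to 76815600, 6.6 kb with 468 reads, at 70.9 reads per kb (64.6 to 77.6). The narrower ran from 76818001 to 76819200, only 1.2 kb with 144 reads, at 120 reads per kb (101 to 141). Its upper end was 2.8 kb inside the edge of the gene interval. The wider island was 0.876 times as dense as the median myotube island and the narrower 1.48 times, so the body combined an island of low density with a short dense one. The short one was among the narrowest, since only 0.0739% of chromosome 2 islands at day 5 were narrower. Whether density goes with width among islands was not tested. The remaining 269 kb of the gene down to its lower edge had no island at either day.

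Reads in islands over the Ttn body went from 0 to 612, which is 2.17 reads per kb of interval (2.00 to 2.35) at day 5. Scaled, the day 5 value was 0.0733 reads per kb per 1000000 island reads, and no fold is given against a value listed at 0. An empty body at day 0 was common on this chromosome, since 33.1% of 631 intervals of 282 kb held no island then. Of those 209 empty intervals, 46 (22.0%) held an island at day 5, as Ttn did. The covered length of Ttn at day 5 was above that of 36.0% of intervals, but of only 13.7% of those with an island at either day. Its change of 2.77 percentage points was above that of 67.2%. Where islands had to reach 70 reads per kb, with that floor scaled to 77.8 at day 5, only the 1.2 kb island was left and the change was 0.426 percentage points.

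**Figure D1:**
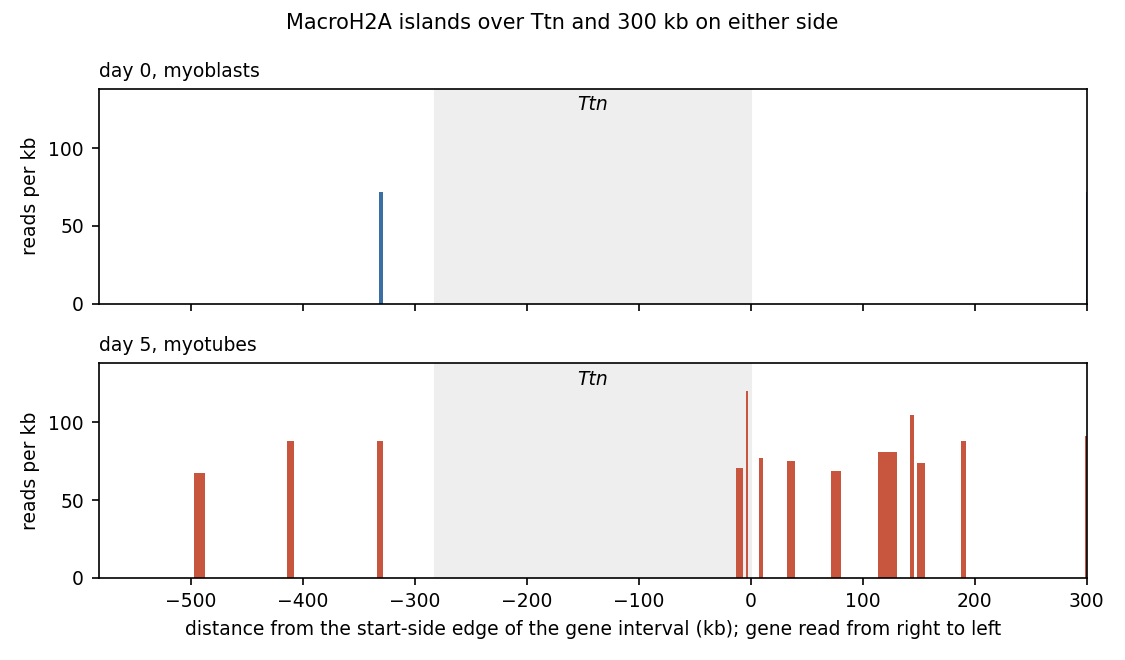
MacroH2A islands over Ttn (grey band) and 300 kb on either side at day 0 (top) and day 5 (bottom), with distance from the start-side edge of the gene interval in kb on the x axis and reads per kb of island on the y axis. Each bar is 1 island, drawn to its width and cut at the plotted range. The day 0 panel has an island in the lower flank and one cut at the right border, while the day 5 panel has 13, of which 2 lie in the body beside its start.

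The larger change at Ttn lay upstream of the gene. In the upper flank, covered length went from 1.0 kb to 52.6 kb (0.333% to 17.5%). The 1.0 kb at day 0 is the edge of an island that crosses the outer border, so no fold is given. Reads in islands per kb of flank were 0.240 (0.188 to 0.302) at day 0 and 13.9 (13.5 to 14.3) at day 5. At day 5, 8 islands met this flank, from 3.0 kb to 16.8 kb wide. The widest ran from 76935601 to 76952400 with 1361 reads, at 81.0 reads per kb (76.8 to 85.4). The first one upstream of Ttn, from 76829401 to 76833000, began 7.4 kb beyond the gene edge. New coverage was 19.8 kb in the 100 kb nearest to the gene, 31.2 kb in the next 100 kb and 0.6 kb in the outermost, so it was spread over the 200 kb next to the gene. The gain of 17.2 percentage points was above that of 93.3% of 593 chromosome 2 intervals of 300 kb. Of these, 148 had no island at either day and so no change. A covered length at least 1.5-fold higher at day 5 was common by itself, at 35.5% of the 445 intervals with an island at either day. That share counts intervals with no island at day 0. With the scaled floor the gain was 8.2 percentage points.

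The lower flank of Ttn, downstream of the gene, also held more at day 5. Covered length went from 3.6 kb in 1 island to 21.0 kb in 3 islands. Reads in islands per kb of flank went from 0.860 (0.758 to 0.972) to 5.50 (5.24 to 5.77), and by scaled reads this was 5.26-fold (4.61 to 6.0). The day 0 value rests on 1 island of 258 reads. Without the 25% of islands with fewest reads that island is dropped, and no fold can be given. The day 0 island, from 76490401 to 76494000, lay wholly inside the day 5 island from 76488601 to 76494000, and both ended 46.0 kb below the gene. The other day 5 islands lay 126 kb and 205 kb below it. The gain of 5.8 percentage points was above that of 76.4% of 593 intervals, including 148 with no island at either day. It fell to 2.6 with a floor of 70 reads per kb, scaled or not, and to 1.8 within 100 kb of the gene.

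Over the whole 882 kb locus of Ttn, covered length went from 4.6 kb to 81.4 kb (0.522% to 9.23%), and all 4.6 kb of day 0 were covered again at day 5. The locus thus moved from below the chromosome 2 median for such lengths, 12.1% at day 0, to nearer the day 5 median of 13.4%. At day 0 it was above 19.5% of 200 intervals of 882 kb and at day 5 above 40.0%. Its gain was above that of 85.0% of them, including 25 with no island at either day. Of the 175 intervals with an island, 29.7% passed 1.5-fold upward, counting those with no island at day 0. The day 0 island-free stretch around Ttn was 627 kb long, from 76494001 to 77121000, and ranked 39 of 2519 on chromosome 2 from the longest. At day 5 the stretch over the gene was 315 kb, from 76494001 to 76809000, ranking 83 of 2704. The median stretch was 7.8 kb at both days. In RefSeq order (GRCm38.p6), the protein-coding neighbours are Plekha3, a phosphoinositide-binding Golgi protein, Fkbp7, an FK506-binding protein, and Pjvk, a hearing protein, on the lower side, with Ccdc141 and then Sestd1 on the upper side. Islands were not assigned to these neighbours, since no mm9 annotation was used.

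Over the Neb body, islands were found at both days but in different places. At day 0, 2 islands covered 15.6 kb (6.34%), and at day 5, 3 islands covered 25.8 kb (10.5%), with no base in common. The day 0 islands ran from 52211401 to 52222200, 10.8 kb with 741 reads at 68.6 reads per kb (63.8 to 73.7), and from 52224001 to 52228800, 4.8 kb with 374 reads at 77.9 (70.2 to 86.2). Both lay within 24.6 kb of the start-side edge. At day 5 this stretch held no island.

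The myotube islands of Neb lay further inside the gene interval. A pair ran from 52168801 to 52182000, 13.2 kb with 1078 reads at 81.7 reads per kb (76.9 to 86.7), and from 52183801 to 52192800, 9.0 kb with 604 reads at 67.1 (61.9 to 72.7). This pair lay 43.2 to 67.2 kb from the start-side edge and 18.6 kb from the nearest day 0 island. The third, from 52040401 to 52044000, was 3.6 kb with 329 reads at 91.4 (81.8 to 102), in the lower part of the gene, 129 kb from any day 0 island. Densities over the body were close to the libraries' medians, at 0.981 times at day 0 and 0.963 times at day 5. The islands of the 2 libraries thus lay in different places at much the same density relative to their library.

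The Neb interval is 43.8 kb longer than the 202 kb that RefSeq gives for the gene in GRCm38.p6, so the place of the start inside it is uncertain. The Ttn interval exceeds its RefSeq length, 279 kb, by only 3.42 kb. Measured from the lower edge, the RefSeq length of Neb ends 43.8 kb inside the start-side edge. By that measure the day 0 islands lie outside the gene and the day 5 pair at its start, and the body goes from 0 to 12.4% covered. This cut of the interval was chosen after the islands were seen.

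**Figure D2:**
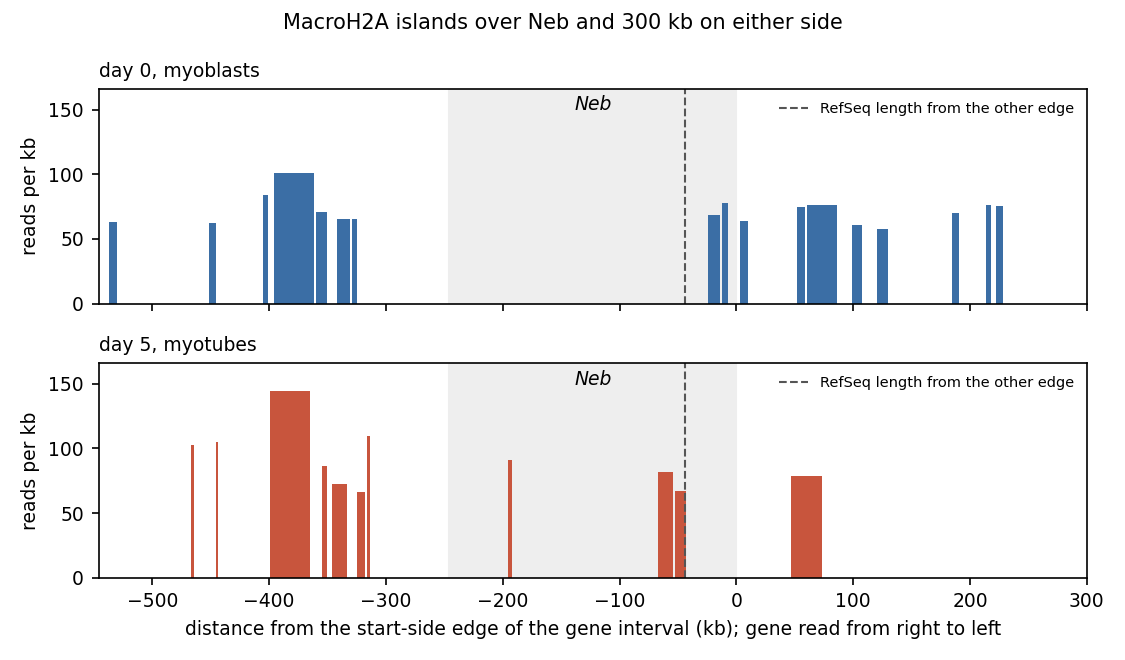
MacroH2A islands over Neb (grey band) and 300 kb on either side at day 0 (top) and day 5 (bottom), with distance from the start-side edge of the gene interval in kb on the x axis and reads per kb of island on the y axis. Each bar is 1 island drawn to its width, and the dashed line lies 43.8 kb inside the edge, where the RefSeq length measured from the lower edge ends. The day 0 islands of the body lie to the right of the line and the 3 day 5 islands lie to its left or touch it, while 8 day 0 islands and 1 day 5 island lie in the right-hand flank.

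Covered length over the Neb body was 1.65-fold higher at day 5. Reads in islands went from 1115 to 2011, or from 4.53 (4.27 to 4.81) to 8.17 (7.82 to 8.54) per kb of interval. By scaled reads the ratio was 1.48 (1.38 to 1.60). Among the 516 intervals of 246 kb with an island at either day, 36.0% passed 1.5-fold upward, so passing this mark was common on chromosome 2. That share counts intervals with no island at day 0, while Neb had islands at both days. The share among intervals with islands at both days was not computed. Islands at both days with no shared base were found in 4.90% of the 429 intervals covered at both days. Among the 61 of these with no more covered length than Neb at either day the share was 27.9%, so the lack of overlap is less uncommon among thinly covered intervals. The rise in covered length fell to 1.16-fold when the interval was widened by 10 kb on either side, which takes in a day 0 island 3.0 kb beyond the edge, and to 1.42-fold without the 25% of islands with fewest reads. With a floor of 70 reads per kb, scaled or not, it grew to 3.5-fold. That floor drops the 10.8 kb day 0 island, at 68.6 reads per kb (63.8 to 73.7), and the 9.0 kb day 5 island, at 67.1. The day 0 length then rests on 1 island of 4.8 kb.

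Upstream of Neb, coverage was lower in the myotube library. In the upper flank, covered length went from 72.6 kb in 8 islands to 26.4 kb in 1 island (24.2% to 8.8%), which is 2.75-fold less. Reads in islands per kb of flank went from 16.9 (16.5 to 17.4) to 6.90 (6.61 to 7.21), and the scaled ratio was 0.335 (0.319 to 0.353). The 1 day 5 island, from 52282801 to 52309200, 26.4 kb wide at 78.4 reads per kb (75.1 to 81.9), met 2 of the 8 day 0 islands and shared 19.2 kb with them. Beyond 100 kb from the gene the day 0 list covered 33.2 kb and the day 5 list none. The largest day 0 island here ran from 52296601 to 52321800, 25.2 kb with 1912 reads, and the least dense, from 52356601 to 52366200, had 57.5 reads per kb, below all but 0.556% of chromosome 2 islands. The drop of 15.4 percentage points was exceeded in 3.37% of 593 intervals, of which 148 had no island at either day. Of the 445 with an island, 17.8% passed 1.5-fold downward, counting those with no island at day 5. With a floor of 70 reads per kb, scaled or not, the difference was -5.2 percentage points.

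Downstream of Neb, a dense domain was present at both days. The lower flank was covered over 76.2 kb at day 0 and 64.8 kb at day 5, with 7 islands each and 44.4 kb shared. The widest island at day 0 ran from 51840001 to 51874200 with 3459 reads, and at day 5 from 51837001 to 51871200 with 4933 reads. Both were 34.2 kb wide, and 31.2 kb were common to them. Density was 101 reads per kb (97.8 to 105) at day 0 and 144 (140 to 148) at day 5, or 1.39 and 1.78 times the library's median island. At day 5 it was denser than 99.7% of chromosome 2 islands. Input reads were not analysed here, so the part of the amount of DNA in this density was not tested. Scaled reads over the whole flank differed little, with a ratio of 0.961 (0.930 to 0.994). The change in covered length, -3.8 percentage points, turned to 3.0 under a floor of 70 reads per kb left unscaled and to 6.4 within 100 kb of the gene, so its direction depended on these choices.

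Over the whole 846 kb locus of Neb, covered length went from 164 kb to 117 kb, a ratio of 0.712, and 63.6 kb were shared. The change of -5.6 percentage points was below that of 91.4% of 209 chromosome 2 intervals of 846 kb. Of these intervals, 26 had no island at either day. The 1.41-fold difference at Neb did not reach 1.5. The Jaccard index, shared over joint length, was 0.292 over this locus and 0.0565 over the Ttn locus, against 0.489 for chromosome 2. At the Ttn locus all 4.6 kb of day 0 were shared, so its low index reflects the gain in covered length. Intervals of the same length were not compared by this index. The longest island-free stretch over Neb was 300 kb at day 0, from 51911401 to 52211400, and 125 kb at day 5, from 52044001 to 52168800. In RefSeq order the protein-coding neighbours are Rif1, a regulator of replication timing and DNA repair, and Tnfaip6, a hyaluronan-binding secreted protein, on the lower side, with Arl5a, a small GTPase of the Golgi, and Cacnb4, a calcium channel beta subunit, on the upper side.

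**Figure D3:**
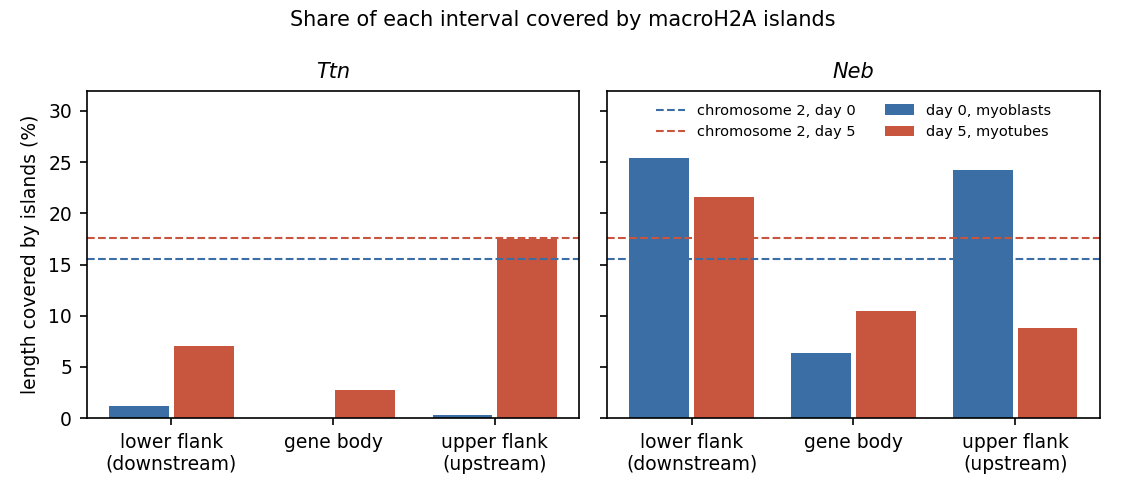
Percent of length covered by macroH2A islands (y axis, from 0) in the lower flank, body and upper flank of Ttn (left) and Neb (right) at day 0 (blue) and day 5 (red), 1 library each. Dashed lines give chromosome 2 as a whole, 15.5% at day 0 and 17.6% at day 5. All 3 parts of Ttn are higher at day 5, while at Neb the body is higher and both flanks are lower.

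Both gene bodies were less covered than their 2 flanks pooled, at both days. At day 5 the pooled value for Neb was carried by the lower flank (21.6%), since the body (10.5%) was more covered than the upper flank (8.8%). The Ttn body lay 0.767 percentage points below its flanks at day 0 (0% against 0.767%) and 9.50 points below at day 5 (2.77% against 12.3%). The Neb body lay 18.5 points below at day 0 (6.34% against 24.8%) and 4.71 points below at day 5 (10.5% against 15.2%). The gap at Ttn was wider at day 5 and that at Neb narrower. Among chromosome 2 intervals set against their own 300 kb flanks, 45.6% had a lower difference than Ttn at day 0 and 23.5% at day 5. For Neb the shares were 9.96% at day 0 and 32.4% at day 5, so the day 0 gap at Neb was the farthest of the 4 from the middle of the intervals. With flanks of 100 kb the day 5 gap at Neb widened to 13.7 points and the day 0 gap at Ttn to 1.8 points.

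By covered share, Neb was above Ttn at both days, at 6.34% against 0% at day 0 and 10.5% against 2.77% at day 5. With Neb cut to its RefSeq length, both were at 0% at day 0, so the day 0 order depended on the interval. Per kb of interval and 1000000 island reads, Neb had 0.186 (0.175 to 0.197) at day 0 and 0.276 (0.264 to 0.288) at day 5, and Ttn had 0.0733 (0.0676 to 0.0793) at day 5. The day 5 counting intervals of the genes did not overlap, but they do not cover differences between libraries or in which islands were called. Against intervals of its own length, Neb was above 50.3% at day 0 and 54.1% at day 5. Of these 723 intervals, 207 held no island at either day, and among the other 516 Neb was above 30.4% and 35.7%. With the RefSeq cut it was above 0% at day 0. The interval medians were 5.85% and 8.29% covered for 246 kb, and 6.81% and 8.72% for 282 kb. Both bodies gained covered length, by 7.8 kb and 10.2 kb, while chromosome 2 as a whole was covered 1.13 times as much at day 5. The loci differed upstream, where Ttn gained 51.6 kb and Neb lost 46.2 kb. Since there is 1 library per day, the difference between these changes was not tested.

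**Figure D4:**
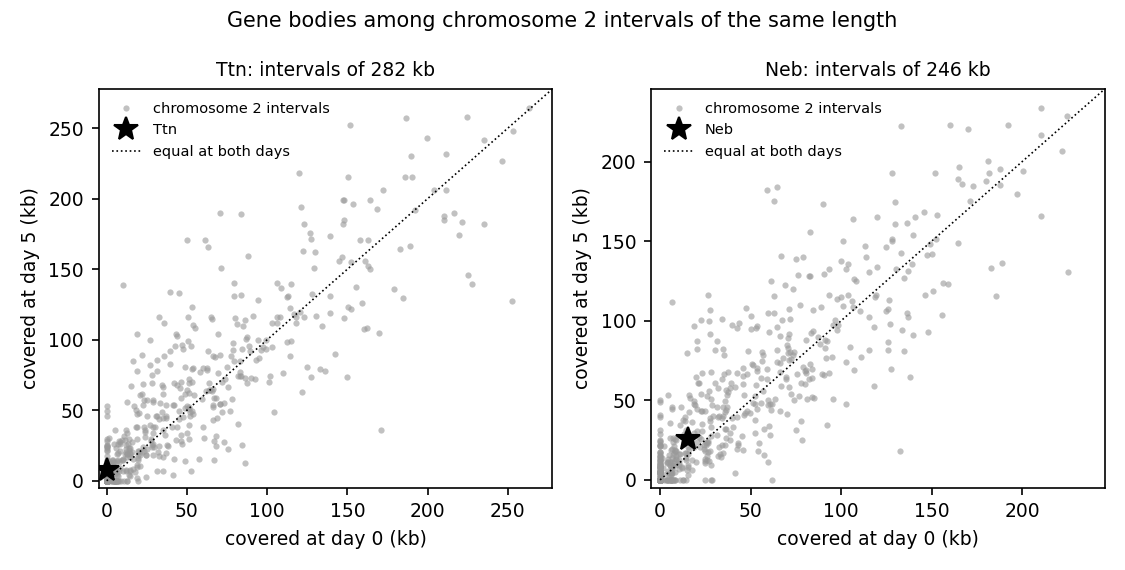
Covered length in kb at day 0 (x axis) and day 5 (y axis) for the gene bodies (stars) and for all chromosome 2 intervals of the same length (grey points), 282 kb for Ttn (left) and 246 kb for Neb (right). The dotted line marks equal values. Ttn lies at 0 and 7.8 kb and Neb at 15.6 and 25.8 kb, both among the many thinly covered intervals near the origin.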

How the data were processed

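The labels' protocols describe macroH2A ChIP-seq of C2C12 cells at day 0 and day 5. The authors deposited, per sample, a list of islands with a whole-number read count each. The file names give 600 bp windows, gaps of 1200 bp and a false discovery rate (FDR) cut-off of 0.01. Tools named in the submitters' processing notes are SICER 1.1, MACS 1.4.2, Bowtie2 2.2.6 and CASAVA 1.4, and the build is mm9 (NCBIM37). Duplicate handling and the control used in calling are not given in the sources used here.

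Gene intervals came with the choice of the genes, which, like the lists, was made with earlier results of these data known. The text names Ttn and Neb, with every island that meets a gene body. An island counted in an interval it overlapped by 1 bp, and its reads were shared out by length. Chromosome 2 intervals of the same length were laid end to end from its first to its last island, leaving out those that met the interval compared. A 1.5-fold difference in covered length was the mark used, and an interval with islands at a single day counted as past it. The interval code was checked against per-base counts on 50 simulated maps and matched in 50. The work used pandas 2.3.3, matplotlib 3.10.9, NumPy 2.4.6 and SciPy 1.17.1 under Python 3.11.15. Coordinates count from 1. Other sarcomere genes were not analysed for lack of an mm9 annotation.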

Additional observations from a re-analysis of the deposited data

How the results depend on the processing

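No paired analysis was possible because each day has 1 library. A recomputed value counted as moved when it left the 95% range of the value given in the report, taking grid windows, reads or intervals as independent draws, and an island number beyond 1.5 times. Of 352 recomputed values, 244 stayed within and 108 did not, 2 of them reversed. The cause was not tested beyond what each setting does by construction. Moving the interval grid by 50% of an interval and scaling to chromosome 2 moved none of their 6 and 1 values. Assigning reads by midpoint could not move its 4 values, since no island crossed an edge of a gene body.

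Reversed was the change over the Neb lower flank, to 3.0 percentage points under a floor of 70 reads per kb left unscaled and to 6.4 with flanks of 100 kb. Under each filter of islands, scaled reads were divided by the reads of the islands kept, so they can move through that total alone. With the unscaled floor, the Neb body was covered over 1.95% and 6.83% at the 2 days, a ratio of 3.5. Per 1000000 reads in the islands kept, it had 0.0841 and 0.205 reads per kb, a ratio of 2.44. Body minus flanks was -13.1 points for Neb at day 0 and -6.4 for Ttn at day 5. The changes were -5.2 points in the Neb upper flank and 2.6 in the Ttn lower flank. Neb at day 5 was above 50.2% of intervals, and the changes of Neb and Ttn above 63.6% and 55.9%. With the scaled floor the Neb values were 1.95%, 6.83%, 3.5, 0.0841, 0.258 and 3.07, in the same order, with -13.1 against its flanks and -5.2 upstream. The same 2 islands of the Neb body were kept at day 5, so 0.258 against 0.205 reflects the smaller total alone. Ttn then had 0.426% covered at day 5, a change of 0.426 points, 0.023 reads per kb per 1000000, -5.74 against its flanks, and changes of 2.6 and 8.2 in the lower and upper flank. Neb at day 5 was above 60.4% of intervals, and the changes of Neb and Ttn above 78.0% and 58.8%.

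Without the 25% of islands with fewest reads, Neb had 0.202 and 0.2496 scaled reads per kb, a ratio of 1.23. Both day 0 islands of the Neb body were kept, so its day 0 value rose from 0.186 through the smaller total alone. The covered ratio of Neb was 1.42 and its change was above that of 67.6% of intervals. Ttn had 0.0606 at day 5 and 13.6 points in its upper flank. With islands of at least 3 kb Ttn had 0.0566. Widening the genes by 10 kb gave Neb 0.237 and 0.255, a ratio of 1.08, a covered ratio of 1.16 and a change above 59.8% of intervals, and Ttn 0.0909 at day 5 and -2.0 against its flanks at day 0. Flanks of 100 kb gave -13.7 for Neb at day 5, -1.8 for Ttn at day 0 and 1.8 for the Ttn lower flank. Unscaled, the Neb read ratio was 1.80. Among intervals with an island at either day, Neb stood above 30.4% and 35.7%, Ttn at day 5 above 13.7%, and their changes above 60.5% and 55.8%. Cut to the RefSeq length, a setting chosen after seeing the data, Neb had 0% covered and 0 scaled reads per kb at day 0, above 0% of intervals, and 0.329 reads at day 5. Its change was 12.4 points, above 88.6% of intervals, with -27.4 against its flanks at day 0 and -20.4 in the upper flank.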
